A study of Mus musculus with 16 samples.

Results

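Hearts reperfused for 24 h were compared with hearts reperfused for 6 h. The comparison used the 8 arrays whose labels name those hours, of 16 in the series, with 4 hearts in each group and 1 array per heart. All animals were male wild-type C57BL/6 mice, 10 weeks old. In both groups the left anterior descending coronary artery was tied for 30 min and then released, so ischemia is common to the groups and the hours after release differ. The other 8 arrays came from 4 sham-operated hearts, whose hours after surgery the labels do not give, and from 4 hearts reperfused for 72 h. The tissue is labelled as heart, and the labels used here do not give the part sampled or its share of injured tissue. The time of day of surgery or collection is not given in the sources used here, and the groups are necessarily different animals. The labels number the hearts but do not say more about how they were processed, so the p-values measure the spread between these hearts, taken within all 4 groups of the 16 arrays.

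Reopening a coronary artery saves muscle but sets off a sequence of responses in the heart. Muscle, vessel and connective tissue cells first switch on short-lived transcription factors, cytokines and chemokines, and neutrophils enter the injured wall. Monocytes follow and become macrophages that clear debris, while fibroblasts and vessel cells divide and lay down a provisional matrix. Surviving muscle cells shift their fuel use, their ion channels and their contractile genes.

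Expression is given as the authors' log2 value of a gene's probe set, and a difference is the mean log2 value at 24 h minus the mean at 6 h, so that 1 unit is a 2-fold difference on the authors' scale. Errors are standard errors of that difference from a limma fit over all 16 arrays. A gene passed when its p-value, adjusted over 19505 genes by the Benjamini-Hochberg method, was under 0.05. At 24 h 3372 genes (17.3% of 19505) were higher and 2135 (10.9%) were lower than at 6 h, and 5507 (28.2%) differed in either direction. Of these, 1214 were higher and 597 lower by at least 2-fold, and 178 higher and 142 lower by at least 4-fold. For 24.9% of genes the 4 and 4 arrays did not overlap, 15% with the 24 h arrays above and 9.89% with them below. The median difference over all genes was -0.04, and the median standard error was 0.183. Counts of list members below on the deposited scale are to be read against 17.3% higher and 10.9% lower, and list medians against -0.04. Where a count is given at an unadjusted limma p under 0.05, it is to be read against 7572 of 19505 genes in either direction.

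The number of calls in each direction depended on the scale to which arrays were set. The hybridization spike-ins, control RNAs added at the same amount to every array, averaged 10.76 at 6 h and 10.23 at 24 h, and the positive control probe sets had medians of 9.55 and 10.00. Both differences had an exact two-sided permutation p of 0.0286, the smallest that 4 against 4 arrays allow, and 0.0679 after adjustment over 19 array measures. Centring arrays on the hybridization spike-ins raised every difference by 0.53 and gave 9811 higher and 539 lower genes. Centring on the positive controls lowered every difference by 0.44 and gave 1492 higher and 10310 lower genes, and the poly-A spike-ins, added to the RNA itself, gave 4882 and 831. Median centring gave 2741 and 3290 and quantile normalization 2886 and 2452, so that 45.4% and 54.1% of calls were higher, against 61.2% with the values as deposited. A difference smaller than these shifts can turn with the scaling. The counts of each list are therefore given with the values as deposited and, where a list's counts changed, with the hybridization spike-ins and the positive controls, which shift differences in opposite directions. List counts under a centring are to be read against the counts of all 19505 genes under that centring. These were 9811 higher and 539 lower with the hybridization spike-ins, and 1492 higher and 10310 lower with the positive controls.

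2 of the 24 h hearts stood apart. Replicate 16 had an atrial marker mean of 11.76 against 9.54 to 9.63 in the others, with Myl4, the atrial essential light chain, at 15.22 against 7.34 to 7.93. Replicate 17 lay nearest the 6 h hearts on the main axis of variation over the 8 arrays, at 26.7 against 48.5 to 55.0. Without both, 3201 genes were higher and 1979 lower. The tissue label was checked with the heart muscle genes Myl2 and Tnnt2, which lay between 18.15 and 19.04 on all 8 arrays. Levels under 6.76, a value that 75% of negative control probe sets lie below, are called near background, and a fold from or to such a level is uncertain. This applies to every such level below, also where it is not repeated. Values are given in the order of replicates 7, 8, 10 and 11 at 6 h and of replicates 14, 15, 16 and 17 at 24 h.

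The largest rise belonged to Arg1, arginase 1, which breaks down arginine and marks macrophages engaged in repair. Its level was 4.28, 4.27, 5.25 and 5.26 at 6 h and 9.0, 9.83, 11.56 and 8.95 at 24 h, a difference of 5.07 ± 0.53 (adjusted p = 1.16e-06), or 33.5-fold, from a 6 h level near background and beside a sham mean of 4.61. The groups did not overlap, and replicate 16 was the highest heart. Next came Tnc, the matrix glycoprotein tenascin C, at 7.52, 7.28, 8.61 and 7.43 at 6 h and 12.60, 12.94, 13.07 and 11.39 at 24 h, a difference of 4.79 ± 0.36 (adjusted p = 2.94e-08). Cd180, a Toll-like receptor relative of B cells and myeloid cells, rose by 4.35 ± 0.36 (adjusted p = 7.62e-08). The other large rises were those of Fn1, encoding fibronectin (4.13 ± 0.39), Sprr1a, a stress-induced small proline-rich protein (4.0 ± 0.58), Star, which carries cholesterol into mitochondria (3.98 ± 0.35), Ankrd2, a stretch-responsive ankyrin repeat protein of muscle (3.87 ± 0.55), Ccr2, the receptor for monocyte chemoattractants (3.81 ± 0.46), H2ac15, a histone H2A copy (3.81 ± 0.53), Mmp12, macrophage elastase (3.74 ± 0.53), Serpinb1a, an inhibitor of neutrophil proteases (3.70 ± 0.28), and Gask1b (3.50 ± 0.24). The 6 h means of Cd180, Sprr1a, Star and H2ac15 were near background too, so their folds are uncertain. H2ac15 is 1 of several near-identical histone copies whose probes may not tell them apart. In replicate 17 Sprr1a was at 4.91 and the other 24 h hearts at 7.76 to 8.85.

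The largest fall was that of Fam107a, a stress-responsive actin-binding protein. It stood at 10.94, 11.40, 10.98 and 10.66 at 6 h and 4.89, 4.78, 5.21 and 5.97 at 24 h, so that the 24 h hearts were all near background, and it fell by 5.78 ± 0.24 (adjusted p = 1.1e-11), which is 54.9-fold. Its sham mean was 5.81, on the side of the 24 h hearts. Nr4a3, a nuclear receptor of the immediate early class, was at 11.90, 12.91, 11.90 and 12.44 at 6 h and 5.76, 7.07, 6.75 and 6.73 at 24 h and fell by 5.70 ± 0.28 (adjusted p = 9.38e-11). Pdk4, the kinase that shuts off pyruvate oxidation, was at 17.53, 17.17, 17.44 and 17.58 at 6 h and 12.47, 12.19, 12.20 and 11.93 at 24 h and fell by 5.24 ± 0.28 (adjusted p = 2.35e-10). The 6 h arrays did not overlap the 24 h arrays for any of these genes, which the rule for choosing them required. Adh1, an alcohol and retinol dehydrogenase, fell by 5.25 ± 0.34 (adjusted p = 3.17e-09). Atf3, a stress-induced transcription factor, differed by -4.94 ± 0.39, Adamts1, a proteoglycan-cleaving protease, by -4.87 ± 0.31, Hspa1a, the stress-inducible heat shock protein, by -4.61 ± 0.72, Zbtb16, a zinc finger factor, by -4.59 ± 0.45, Tmem252 by -4.53 ± 0.39, Fkbp5, a glucocorticoid-induced co-chaperone, by -4.46 ± 0.42, Otud1, a deubiquitinase, by -4.40 ± 0.27 and Ciart, a repressor within the circadian clock, by -4.35 ± 0.35. The 24 h means of Nr4a3, Hspa1a, Tmem252, Otud1 and Ciart were near background, so their folds are uncertain.

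**Figure D1:**
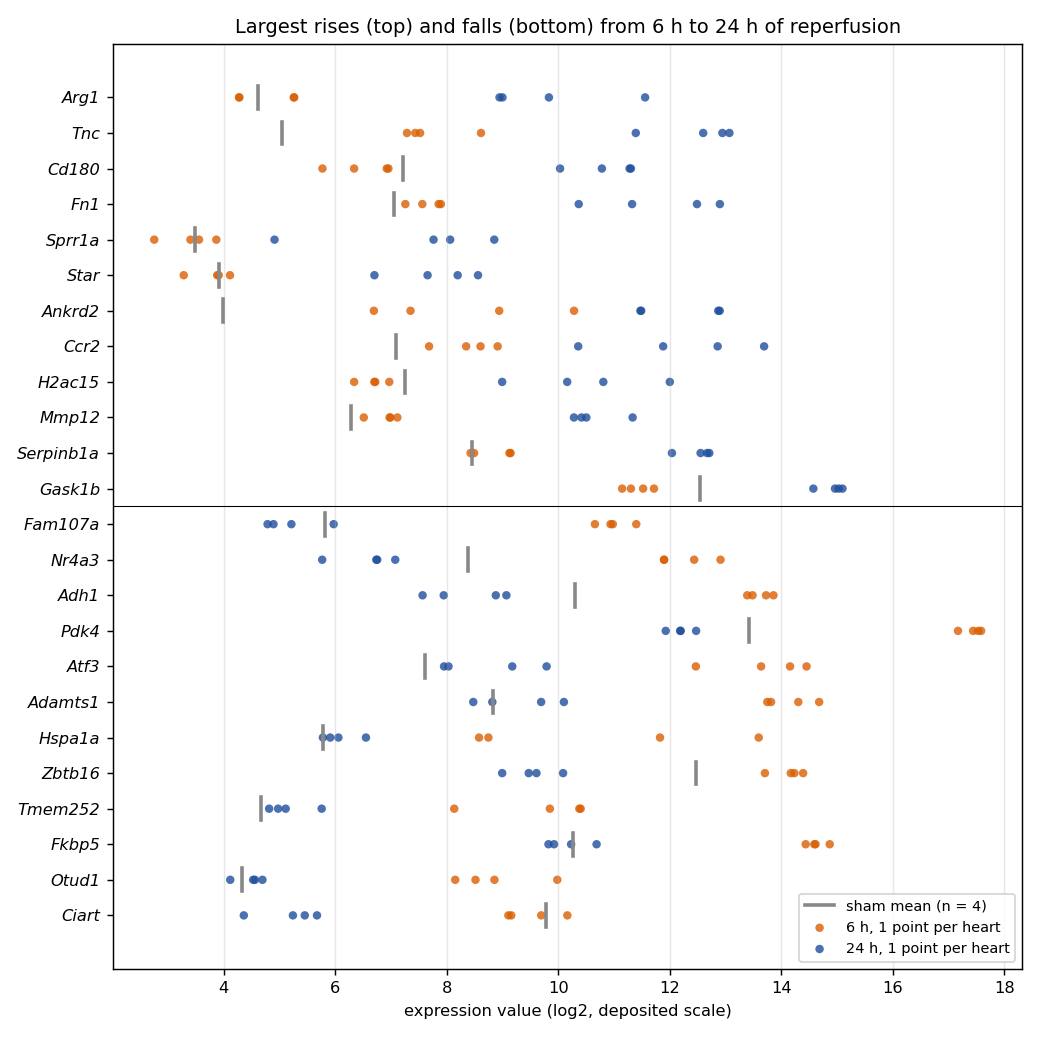
Log2 value (x axis) of the 12 genes with the largest rises (top) and the 12 with the largest falls (bottom) from 6 h to 24 h. Each point is 1 heart, orange at 6 h and blue at 24 h, and the grey bar is the mean of 4 sham hearts. Orange and blue points do not overlap for any of these genes, which the rule for choosing them required. The Arg1 points of the 6 h hearts span 4.27 to 5.26 and those of the 24 h hearts 8.95 to 11.56.

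Across 53 gene lists, 771 of 838 distinct genes were measured. The lists with the highest medians were monocyte and macrophage markers (1.94), DNA replication (1.21), endoplasmic reticulum chaperones (1.07) and mitosis (1.0). The lowest medians were those of glucocorticoid response genes (-2.18), immediate early factors (-1.62), neutrophil-attracting CXC chemokines (-1.36) and endothelial activation genes (-0.92). These 8 medians kept their sign under each scaling that was tried. Of the 53 medians 30 turned under at least 1 of 5 scalings. With the hybridization spike-ins 19 of 31 negative medians turned positive, those of the oxidative phosphorylation, sarcomere, calcium, ion channel, neutrophil, interferon and NRF2 lists among them. With the positive controls 11 of 22 positive medians turned negative, those of the proteasome, resident macrophage, ATF4, glycolysis and fetal stress lists among them.

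**Figure D2:**
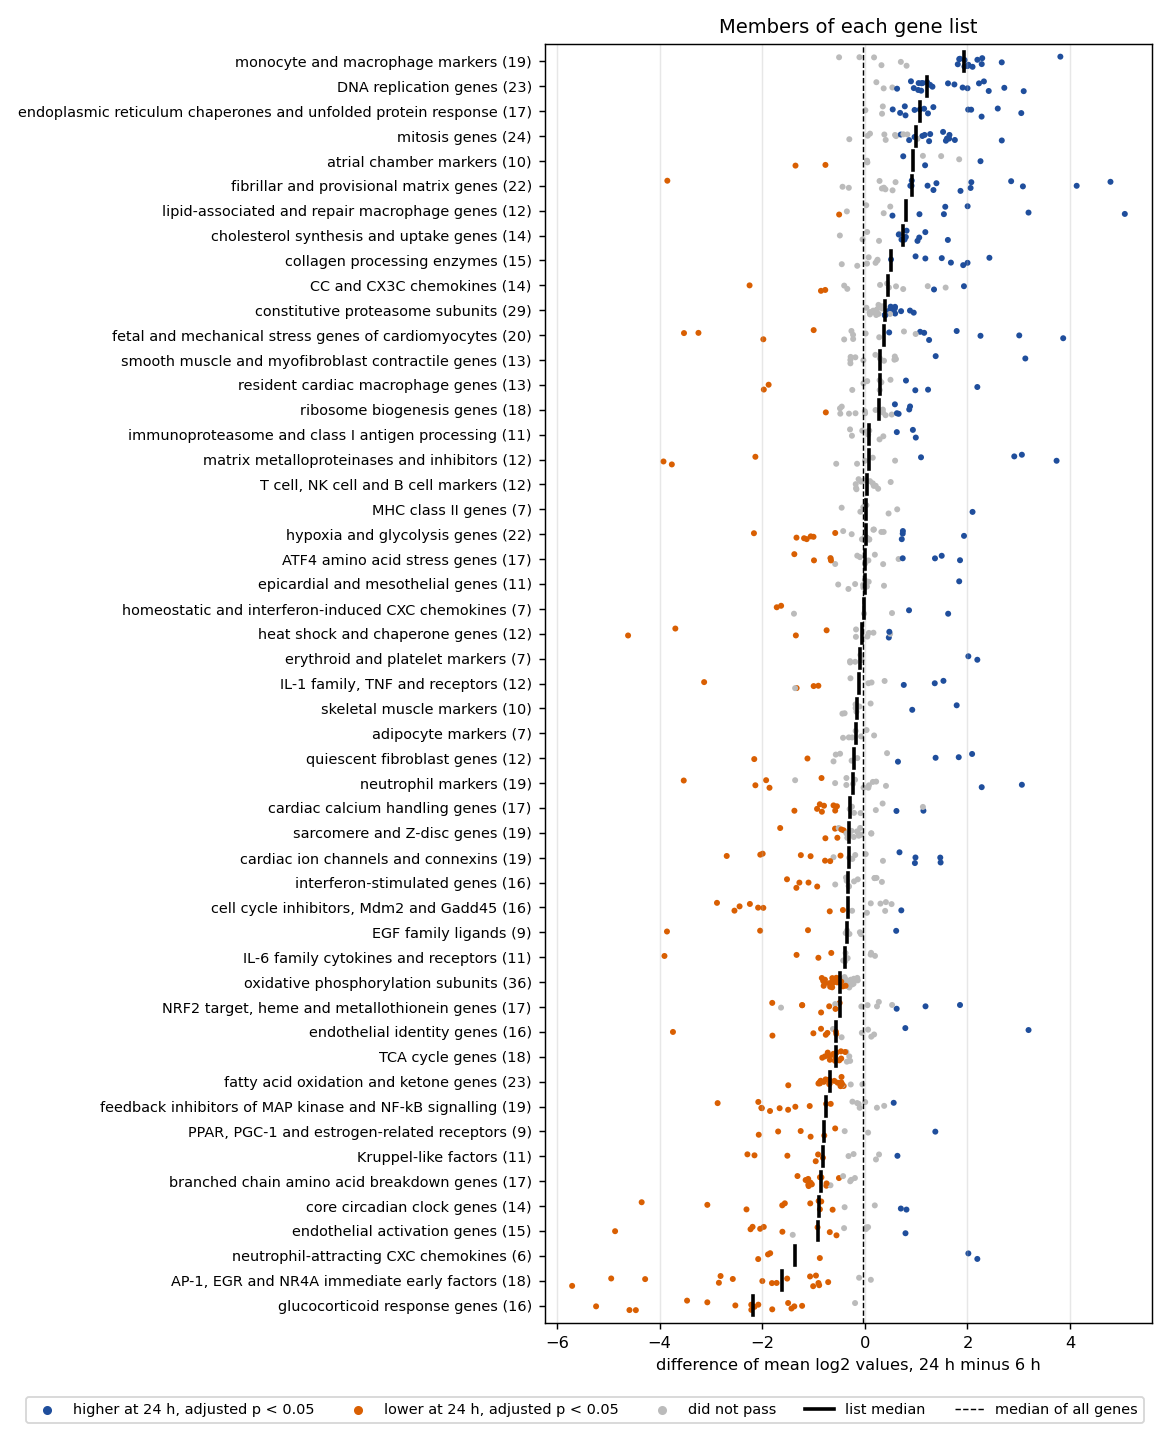
Difference of mean log2 values, 24 h minus 6 h (x axis), for the measured members of the gene lists (listed at the left, with the number measured). The lists of circadian output factors (4 measured) and of adrenergic and muscarinic receptors (3 measured) are not drawn. Blue points passed as higher, orange points passed as lower and grey points did not pass; the black bar is the list median and the dashed line the median of all genes, -0.04. List medians run from 1.94 for monocyte and macrophage markers to -2.18 for glucocorticoid response genes. The medians of 30 of 53 lists change sign under at least 1 of 5 other array scalings.

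Immediate early transcription factors, which cells switch on within minutes of a stimulus without new protein synthesis, were lower at 24 h in 16 of 18 and higher in 0. Fosb was at 9.55, 10.45, 9.55 and 8.41 at 6 h and 5.10, 5.10, 5.73 and 4.89 at 24 h, a fall of 4.28 on the log2 scale (adjusted p = 7e-09). Egr1 was at 12.92, 13.20, 14.10 and 11.80 at 6 h and 9.94, 10.24, 10.33 and 10.13 at 24 h and fell by 2.84 ± 0.51 (adjusted p = 0.00032). Myc, which drives growth and ribosome production, was at 12.20, 11.55, 12.44 and 11.23 at 6 h and 8.98, 10.30, 10.11 and 7.75 at 24 h and fell by 2.57 ± 0.43 (adjusted p = 0.00017). The groups did not overlap for these genes, and at 24 h Fosb was near background in all 4 hearts. Maff (-2.81 ± 0.23), Nr4a1 (-2.0 ± 0.36) and Jund (-1.72 ± 0.18) fell as well. Fos, at 6.25, 9.87, 9.93 and 5.91 at 6 h, was high in replicates 8 and 10 only, and its difference of -1.81 ± 0.65 passed narrowly (adjusted p = 0.0442). Nr4a2 (-0.11 ± 0.18) and Egr3 (0.12 ± 0.19) did not pass. Centred on the hybridization spike-ins 1 member was higher and 9 were lower, with the positive controls 0 and 17, and 10 were lower without 6 h replicate 10 or without 24 h replicate 17. No match to TGACGTCA, the full cyclic AMP response element, was found in the 13 promoters of these genes in the RefSeq window described below, against 2.42% of all promoters.

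Kruppel-like factors, zinc finger proteins of growth and metabolism, fell in 6 of 11 (3 higher and 3 lower with the hybridization spike-ins, 0 and 8 with the positive controls), and 1, Klf3, rose (0.64 ± 0.13). Klf6, an injury-induced member, was at 13.35, 14.02, 13.79 and 12.94 at 6 h and 10.88, 11.72, 11.61 and 10.73 at 24 h and differed by -2.29 ± 0.25. Klf9 (-2.15 ± 0.20) and Klf15 (-1.51 ± 0.22), both induced by glucocorticoids, fell, while Klf2 (0.22 ± 0.18) and Klf4 (-0.22 ± 0.21), the shear-stress members of endothelium, did not pass. Among feedback inhibitors of MAP kinase and NF-kB signalling 11 of 19 were lower and 1 higher, against 3 higher and 9 lower with the hybridization spike-ins and 0 and 15 with the positive controls. Zfp36, which destabilises cytokine mRNAs, was at 9.79, 9.99, 11.10 and 9.61 at 6 h and 7.08, 7.98, 7.43 and 6.53 at 24 h and fell by 2.87 ± 0.30 (adjusted p = 9.68e-07). Nfkbia, the inhibitor of NF-kB that NF-kB itself induces, fell by 2.08 ± 0.24 (adjusted p = 3.7e-06), and the phosphatases Dusp5 (-2.02 ± 0.33) and Dusp10 (-2.01 ± 0.24) fell with it. Tnip1 was the member that rose (0.56 ± 0.16). Of 9 EGF family ligands 3 fell and 1, Btc, rose (1 higher and 2 lower with the hybridization spike-ins, 0 and 7 with the positive controls). Hbegf, the heparin-binding ligand, was at 13.65, 13.56, 13.40 and 13.81 at 6 h and 8.97, 11.11, 10.65 and 8.25 at 24 h, beside a sham mean of 6.36, and fell by 3.86 ± 0.43 (adjusted p = 2.46e-06). Ereg, epiregulin, differed by -2.04 ± 0.23 and Nrg1, neuregulin 1, by -1.11 ± 0.27. Btc was at 6.09, 6.10, 6.43 and 6.10 at 24 h, near background, and its call was lost without replicates 16 and 17 (adjusted p = 0.0712).

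Glucocorticoid response genes had the lowest median of the lists. Glucocorticoids are stress steroids of the adrenal gland that act through a nuclear receptor in most cells. Of 16 members 15 were lower at 24 h, the same number under each of the 3 control-based centrings, and 0 were higher. Fkbp5 was at 14.61, 14.44, 14.59 and 14.87 at 6 h and 9.82, 9.92, 10.23 and 10.69 at 24 h, with a sham mean of 10.27. Zbtb16 was at 14.17, 14.23, 13.71 and 14.39 at 6 h and 9.61, 9.47, 8.99 and 10.09 at 24 h, with a sham mean of 12.48. For both genes the 24 h hearts lay entirely below the 6 h hearts, and Zbtb16 was also below its sham mean. Angptl4, an inhibitor of lipoprotein lipase, fell by 3.46 ± 0.38 (adjusted p = 1.99e-06). Per1 (-3.07 ± 0.16), Errfi1, an EGF receptor inhibitor (-2.52 ± 0.24), Sgk1, a salt-regulating kinase (-2.21 ± 0.22), and Tsc22d3, the glucocorticoid-induced leucine zipper protein (-1.43 ± 0.21), fell too. Several members are shared with other lists, among them Klf9, Nfkbia, Dusp1, Mt1 and Mt2. Lcn2, an iron-binding acute phase protein, was the member that did not pass (-0.19 ± 0.55). Corticosterone was not measured in these files.

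Cytokine genes of the IL-6 family were lower in 4 of 11 and higher in 0 (2 higher and 2 lower with the hybridization spike-ins, 0 and 9 with the positive controls). Il6 was at 10.71, 10.41, 11.51 and 8.99 at 6 h and 6.42, 6.80, 7.49 and 5.30 at 24 h, with a sham mean of 3.42, and fell by 3.90 ± 0.47 (adjusted p = 5.44e-06). Every 6 h heart exceeded every 24 h heart, and replicates 14 and 17 were near background at 24 h. Osmr, the oncostatin M receptor, differed by -1.33 ± 0.17 and Socs3, the feedback inhibitor of this pathway, by -0.91 ± 0.25. The Socs3 call was lost without replicates 16 and 17 (adjusted p = 0.113), and the list median of -0.38 turned to 0.15 with the hybridization spike-ins. Within the IL-1 and TNF list 4 of 12 fell and 3 rose (6 higher and 2 lower with the hybridization spike-ins, 2 and 5 with the positive controls). Il33, an alarmin of stromal nuclei, fell by 3.13 ± 0.33 (adjusted p = 1.36e-06), and Il1r1, the signalling receptor, fell by 1.33 ± 0.26 (adjusted p = 0.000578). Tnf, at 3.87, 3.96, 4.55 and 4.07 at 6 h and 5.57, 6.19, 6.57 and 4.25 at 24 h, rose by 1.53 ± 0.35 from a level near background. Il1b, the main secreted member, was at 10.03, 8.09, 10.11 and 9.01 at 6 h and 8.57, 9.56, 10.26 and 7.72 at 24 h and did not pass (-0.28 ± 0.51). Il1rn, the receptor antagonist, rose by 1.36 ± 0.39, a call lost without 24 h replicate 15 (adjusted p = 0.054). Without that heart 1 member of the list was higher.

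Chemokines moved in both directions. Of the 6 genes on the list named for neutrophil-attracting CXC chemokines 4 fell, and with the hybridization spike-ins 3 fell. The other 2, the platelet chemokines Pf4 and Ppbp, rose, and Pf4 is also on the resident macrophage list below. Cxcl1, Cxcl2 and Cxcl3 are neighbours on mouse chromosome 5 and act on the same receptor of neutrophils. Their promoters are shown because a form of the NF-kB binding motif, GGG, any 2 bases and TTTCC, was found in them. The stretches come from RefSeq windows of GRCm38.p6, from 250 bases before to 50 after a gene's start, are read 5′ to 3′ along the gene, and carry the motif in capitals on either strand with up to 20 bases on each side, ending before the gene's start. Cxcl1 lies at chr5:90891136-90891203 (plus strand), Cxcl2 at chr5:90903782-90903850 (plus strand) and Cxcl3 at chr5:90786008-90786057 (plus strand).
Cxcl1: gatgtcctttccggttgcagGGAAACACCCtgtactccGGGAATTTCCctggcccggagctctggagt
Cxcl2: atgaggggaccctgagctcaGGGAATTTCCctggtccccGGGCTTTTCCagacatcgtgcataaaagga
Cxcl3: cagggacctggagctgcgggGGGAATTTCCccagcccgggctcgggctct
The motif was present in 3 of 5 promoters of this list held in the table, or 60%, and in 1.5% of 15691 promoters. A shorter form, GGG, any 2 bases and TTCC, was found in 0 of these 5 and in 6.07% of all promoters. The longer form was found in 0 of 12 promoters of the IL-1 and TNF list. In the CC chemokine list it was found in 1 of 8, that of Ccl9, which rose. In all, 19 motifs were searched in 38 combinations with lists, and 20 combinations had no match. A match describes letters and not binding.

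Cxcl1 was at 8.52, 8.04, 8.07 and 6.83 at 6 h and 5.74, 5.82, 6.26 and 5.32 at 24 h, with a sham mean of 3.96, and fell by 2.08 ± 0.27 (adjusted p = 1.22e-05). Cxcl2 was at 8.16, 7.77, 8.77 and 6.75 at 6 h and 5.51, 6.24, 6.77 and 5.37 at 24 h and fell by 1.89 ± 0.33 (adjusted p = 0.000234), with 24 h replicate 16 just above 6 h replicate 11. Cxcl3 was at 6.67, 6.60, 7.13 and 5.96 at 6 h and 5.76, 5.93, 5.68 and 5.48 at 24 h, close to background, and differed by -0.88 ± 0.22. All 24 h means of these 3 genes were near background. Cxcl5, a further ligand of that receptor made by stromal cells, was at 11.24, 10.19, 11.43 and 11.11 at 6 h and 9.10, 10.35, 9.87 and 7.29 at 24 h and fell by 1.84 ± 0.45 (adjusted p = 0.00454), with replicate 15 within the 6 h range and every 24 h heart above the sham mean of 4.53. Pf4, platelet factor 4, was at 8.13, 8.21, 7.89 and 7.61 at 6 h and 9.98, 10.30, 10.73 and 9.59 at 24 h and rose by 2.19 ± 0.29, and Ppbp rose by 2.02 ± 0.49. Of 5 other genes on the erythroid and platelet list none passed on the deposited scale and 5 fell with the positive controls, among them Itga2b, the platelet integrin (-0.29 ± 0.21), and Alas2, of red cell precursors (-0.06 ± 0.18).

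The CC chemokines, which mostly attract monocytes, eosinophils and lymphocytes, rose in 2 of 14 and fell in 3. Ccl2, the main monocyte chemoattractant, was at 12.09, 11.41, 11.36 and 11.47 at 6 h and 12.21, 12.83, 13.35 and 10.93 at 24 h, beside a sham mean of 5.54. Its difference of 0.75 ± 0.41 did not pass (adjusted p = 0.186). Replicate 17 was below every 6 h heart, and without it the difference was 1.22 (adjusted p = 0.0119). Ccl6 rose by 1.93 ± 0.38 and Ccl9 by 1.35 ± 0.31, both myeloid chemokines of rodents. Ccl12 (1.57 ± 0.63) and Ccl7 (1.23 ± 0.48) did not pass. Ccl11, eotaxin, was at 8.77, 8.28, 9.05 and 8.60 at 6 h and 5.79, 6.43, 6.78 and 6.72 at 24 h and fell by 2.25 ± 0.28 (adjusted p = 6.11e-06). Ccl5 (-0.85 ± 0.17) and Ccl17 (-0.77 ± 0.24) also fell. With the hybridization and poly-A spike-ins 9 and 8 members were higher and 1 and 2 lower, with the positive controls 2 and 4, and without 24 h replicate 17 5 were higher. Among 7 remaining CXC chemokines (4 higher and 2 lower with the hybridization spike-ins, 1 and 3 with the positive controls), Cxcl12, which retains cells bearing CXCR4, rose by 1.62 ± 0.19 and Cxcl16 by 0.86 ± 0.21, and Cxcl9 (-1.72 ± 0.40) and Cxcl14 (-1.63 ± 0.28) fell.

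Neutrophil markers fell in 5 of 19 and rose in 2, and the rest did not pass. The balance turned with the scaling, to 6 higher and 4 lower with the hybridization spike-ins and 2 higher and 10 lower with the positive controls. Retnlg, a resistin-like protein of neutrophils, was at 11.47, 10.34, 12.82 and 9.46 at 6 h and 5.96, 9.05, 8.52 and 6.45 at 24 h and fell by 3.53 ± 0.62 (adjusted p = 0.000272). Mmp8, neutrophil collagenase, fell by 2.13 ± 0.48 (adjusted p = 0.00245), and Hdc, which makes histamine, differed by -1.92 ± 0.33. S100a8, one chain of calprotectin, was at 7.88, 8.97, 10.61 and 8.02 at 6 h and 8.33, 10.31, 10.78 and 6.38 at 24 h and its difference of 0.08 ± 0.78 did not pass (adjusted p = 0.953). S100a9 (-0.36 ± 0.64) and the chemokine receptor Cxcr2 (0.41 ± 0.63) did not pass either. Mmp9, gelatinase B, rose by 3.06 ± 0.56 (adjusted p = 0.000363), from near background at 4.09, 4.33, 3.99 and 3.19 to 6.14, 7.68, 8.88 and 5.15. Csf3r, the receptor for granulocyte colony stimulating factor, rose by 2.28 ± 0.62. The mean over the neutrophil list was 6.63 to 7.85 at 6 h and 5.73 to 7.55 at 24 h (exact permutation p = 0.486), against 4.47 to 4.86 in sham. In these bulk samples fewer cells of a type and less RNA per cell cannot be told apart.

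Monocyte and macrophage markers rose in 13 of 19 and fell in 0 (16 higher and 0 lower with the hybridization spike-ins, 13 and 1 with the positive controls). Ccr2 was at 8.91, 7.68, 8.35 and 8.60 at 6 h and 11.88, 12.86, 13.69 and 10.36 at 24 h and rose by 3.81 ± 0.46 (adjusted p = 5.57e-06). Lyz2, lysozyme of myeloid cells, was at 12.31, 12.23, 12.11 and 11.77 at 6 h and 14.64, 15.19, 15.41 and 13.84 at 24 h and rose by 2.67 ± 0.26 (adjusted p = 5.12e-07). Csf1r, the growth factor receptor that macrophages require, was at 9.33, 9.75, 9.06 and 9.21 at 6 h and 10.95, 11.34, 11.76 and 10.54 at 24 h, with a sham mean of 9.97, and rose by 1.81 ± 0.24 (adjusted p = 1.52e-05). In each of these genes all 24 h hearts exceeded all 6 h hearts, replicate 16 was the highest and replicate 17 the lowest of the 24 h hearts. Itgam (2.0 ± 0.39), Adgre1, encoding F4/80 (1.84 ± 0.18), the Fc receptor chain Fcer1g (2.19 ± 0.29) and Tyrobp (2.28 ± 0.36) rose as well. Ly6c2, of inflammatory monocytes (-0.50 ± 0.20), Cd14 (-0.10 ± 0.29) and Fcgr3 (0.18 ± 0.28) did not pass. Chil3 rose by 2.29 ± 0.65, a call lost without replicate 15 or 16 (adjusted p = 0.0505 and 0.0516). The list mean was 9.02 to 9.44 at 6 h and 9.84 to 11.68 at 24 h.

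Macrophages that live in the healthy heart have genes of their own, and here 4 of 13 rose and 2 fell. These counts became 10 higher and 2 lower with the hybridization spike-ins and 2 and 3 with the positive controls. Lyve1, a hyaluronan receptor, was at 12.47, 12.93, 12.28 and 12.69 at 6 h and 10.84, 9.72, 10.77 and 11.16 at 24 h and fell by 1.97 ± 0.27 (adjusted p = 2.41e-05). Cd163, the hemoglobin scavenger receptor, was at 7.15, 8.08, 7.43 and 7.38 at 6 h and 5.62, 4.98, 5.92 and 6.03 at 24 h and fell by 1.87 ± 0.23 (adjusted p = 5.36e-06). The 24 h hearts were below the 6 h hearts for both genes, and all 4 were below the sham means of 11.37 for Lyve1 and 6.78 for Cd163. The 24 h level of Cd163 was near background. Timd4 (-0.24 ± 0.22), Folr2 (0.50 ± 0.24) and Mrc1, the mannose receptor (0.29 ± 0.15), did not pass, while Vsig4 (1.23 ± 0.29), Siglec1 (0.98 ± 0.26) and Cbr2 (0.80 ± 0.23) rose. The remaining member that rose was Pf4, which is counted in the CXC chemokine list above as well. Genes of lipid-associated and repair macrophages rose in 7 of 12 and fell in 1 (10 higher and 0 lower with the hybridization spike-ins, 6 and 2 with the positive controls). After Arg1 the largest was Lgals3, galectin 3, at 5.84, 5.81, 5.26 and 5.59 at 6 h and 9.06, 9.56, 9.17 and 7.46 at 24 h, a difference of 3.19 ± 0.42 (adjusted p = 1.53e-05). Its 6 h level was near background. Trem2, a lipid-sensing receptor, rose by 2.0 ± 0.37 to a mean still short of its 72 h mean of 10.01, and Fabp5 by 1.57 ± 0.28. Apoe (-0.35 ± 0.16) did not pass and Lpl, abundant in muscle, fell (-0.50 ± 0.14).

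**Figure D3:**
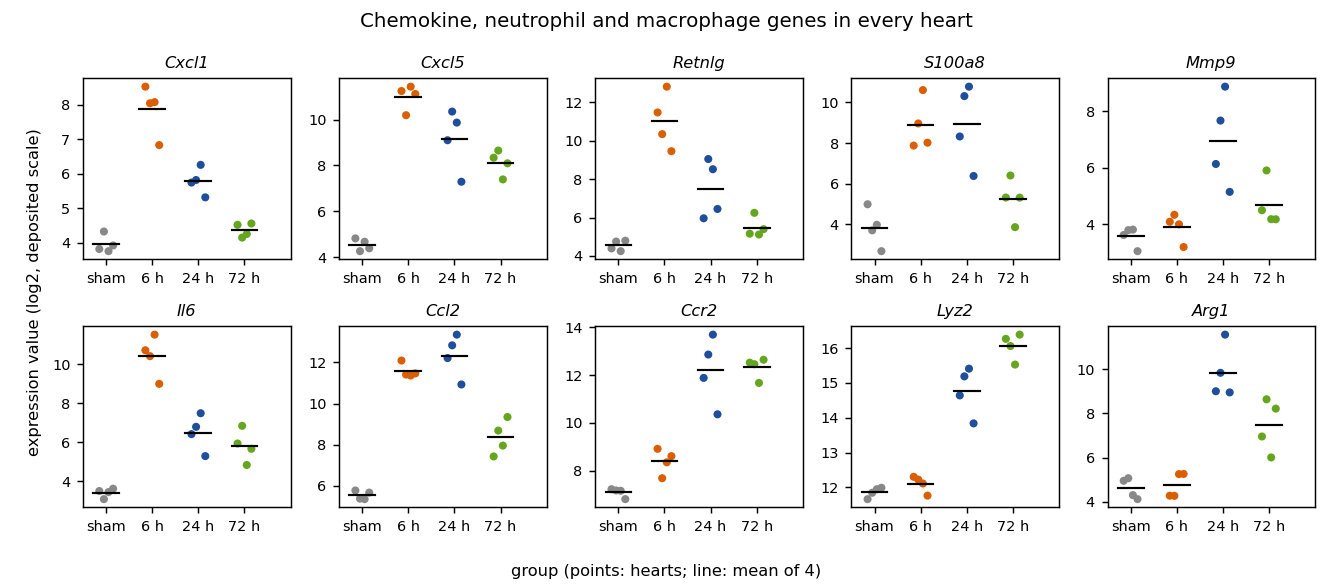
Log2 values (y axes, which differ between panels) of 10 chemokine, neutrophil and macrophage genes in every heart of the 4 groups (x axis), with a line at the mean of 4. Cxcl1, Cxcl5, Retnlg and Il6 are lower at 24 h than at 6 h, Mmp9, Ccr2, Lyz2 and Arg1 are higher, and S100a8 and Ccl2 did not pass. S100a8 spans 7.88 to 10.61 at 6 h and 6.38 to 10.78 at 24 h.

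Few genes of adaptive immunity passed on the deposited scale. None of 12 T, NK and B cell markers passed in the limma fit (1 higher and 0 lower at an unadjusted p under 0.05), and their mean was 4.28 at 6 h and 4.33 at 24 h, below background. With the hybridization spike-ins 7 were higher and with the positive controls 5 lower. Of all 19505 genes 9811 were higher and 10310 lower under the same centrings, in that order. Of 7 MHC class II genes 1, the peptide-loading chain H2-DMb1, rose (2.10 ± 0.32), against 4 higher and 0 lower with the hybridization spike-ins and 1 and 1 with the positive controls, while H2-Ab1 (-0.09 ± 0.29) and Ciita, the master activator (0.46 ± 0.19), did not pass. Interferon-stimulated genes fell in 5 of 16 and rose in 0 (3 higher and 1 lower with the hybridization spike-ins, 0 and 12 with the positive controls), and 3 fell without 24 h replicate 15. Ifit1 was at 8.80, 7.0, 6.86 and 7.02 at 6 h and 5.75, 5.54, 6.48 and 5.84 at 24 h, with 6 h replicate 7 far above the other 6 h hearts, and differed by -1.52 ± 0.37. Rsad2 (-1.33 ± 0.41), Ifit3 (-1.28 ± 0.37) and Mx2 (-1.10 ± 0.33) followed it, and the Ifit3 call was lost without 6 h replicate 7 (adjusted p = 0.055) or 24 h replicate 15 (adjusted p = 0.0559) and the Rsad2 call without replicate 15 (adjusted p = 0.0815). Mx2 did not pass without replicates 16 and 17 (adjusted p = 0.0747). Isg15 (-0.21 ± 0.20), Irf7 (0.33 ± 0.26) and Oas1a (0.23 ± 0.21) did not pass. The immunoproteasome subunits Psmb8 (0.99 ± 0.20), Psmb9 (0.62 ± 0.18) and Psmb10 (0.94 ± 0.26) rose, as the 3 of 11 that passed in their list (7 higher and 0 lower with the hybridization spike-ins, 1 and 2 with the positive controls), from levels near background for Psmb8 and Psmb9, and the Psmb9 call was lost without replicates 16 and 17 (adjusted p = 0.0528).

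Most activation genes of endothelium fell. Of 15 members 9 fell and 1, Esm1, rose (0.79 ± 0.25), against 3 higher and 5 lower with the hybridization spike-ins and 0 and 11 with the positive controls. Adamts1 was at 13.82, 14.30, 14.68 and 13.75 at 6 h and 8.47, 9.69, 10.10 and 8.82 at 24 h, with a sham mean of 8.83, and fell by 4.87 ± 0.31 (adjusted p = 2.67e-09). Selp, P-selectin, on which leukocytes roll, was at 10.12, 10.28, 10.64 and 9.40 at 6 h and 7.41, 8.79, 8.91 and 6.43 at 24 h and fell by 2.23 ± 0.47 (adjusted p = 0.00129), all above its sham mean of 3.90. Thbd, thrombomodulin, was at 12.37, 14.12, 13.41 and 12.50 at 6 h and 10.81, 10.78, 11.15 and 10.92 at 24 h and fell by 2.19 ± 0.27 (adjusted p = 6.46e-06). The groups did not overlap in these genes. Adamts9 (-2.04 ± 0.25) and Ptgs2, cyclooxygenase 2 (-1.97 ± 0.27), fell, and the leukocyte adhesion molecules Icam1 (0.02 ± 0.15) and Vcam1 (0.03 ± 0.20) did not pass. Genes of endothelial identity fell in 8 of 16 and rose in 2. Rgcc, a cell cycle regulator of endothelium, was at 11.80, 11.65, 10.86 and 11.24 at 6 h and 7.85, 7.24, 7.44 and 8.05 at 24 h and fell by 3.74 ± 0.20 (adjusted p = 2.56e-10). Gpihbp1, which holds lipoprotein lipase on capillaries, was at 11.93, 11.62, 11.68 and 11.59 at 6 h and 9.93, 9.49, 10.05 and 10.14 at 24 h and fell by 1.80 ± 0.19 (adjusted p = 1.01e-06). Aplnr, the apelin receptor, moved the other way, at 7.68, 7.53, 7.87 and 6.93 at 6 h and 11.04, 10.35, 10.53 and 10.86 at 24 h, a rise of 3.19 ± 0.30 (adjusted p = 3.14e-07) back to near its sham mean of 10.97. Robo4 differed by -1.0 ± 0.22 and Tek by 0.79 ± 0.16. Pecam1 (-0.45 ± 0.19), Cdh5 (0.13 ± 0.17) and Kdr (-0.06 ± 0.15), general endothelial markers, did not pass, and with the hybridization spike-ins the list had 2 lower and 5 higher members, against 11 and 1 with the positive controls.

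Matrix genes rose. Of 22 fibrillar and provisional matrix genes 13 were higher and 1, Thbs1, was lower, and 19, 15 and 11 were higher and 1, 1 and 3 lower with the hybridization, poly-A and positive controls. Fn1 was at 7.89, 7.85, 7.56 and 7.25 at 6 h and 11.32, 12.49, 12.90 and 10.37 at 24 h and rose by 4.13 ± 0.39 (adjusted p = 3.35e-07). Col3a1, a fibrillar collagen chain, was at 8.98, 9.68, 9.64 and 8.63 at 6 h and 12.91, 12.07, 11.79 and 12.49 at 24 h, with a sham mean of 10.14, and rose by 3.08 ± 0.29 (adjusted p = 2.96e-07). Col1a1, a chain of the main scar collagen, was at 6.98, 7.62, 7.44 and 7.01 at 6 h and 9.72, 9.13, 8.84 and 8.83 at 24 h and rose by 1.86 ± 0.22 (adjusted p = 4.89e-06). Postn, periostin of activated fibroblasts, was at 11.63, 11.67, 12.07 and 11.37 at 6 h and 14.15, 12.96, 13.55 and 14.39 at 24 h and rose by 2.08 ± 0.31 (adjusted p = 5.5e-05). In each the 24 h hearts all exceeded the 6 h hearts, and for Col1a1, Col3a1 and Postn replicate 14 or 17, not 16, was the highest. Thbs1, thrombospondin 1, an activator of TGF-beta, was at 13.68, 13.75, 14.06 and 13.17 at 6 h and 9.33, 10.39, 10.97 and 8.57 at 24 h, with a sham mean of 4.74, and fell by 3.85 ± 0.43 (adjusted p = 2.24e-06). Cthrc1, of activated fibroblasts (0.60 ± 0.29), and Eln, elastin (-0.43 ± 0.21), did not pass. Collagen processing enzymes rose in 8 of 15 and fell in 0 (13 higher and 0 lower with the hybridization spike-ins, 7 and 2 with the positive controls). Serpinh1, the collagen chaperone, was at 11.14, 11.76, 11.09 and 10.94 at 6 h and 13.53, 13.99, 13.99 and 13.14 at 24 h and rose by 2.43 ± 0.22 (adjusted p = 1.9e-07). The cross-linking enzymes Loxl3 (2.0 ± 0.29) and Loxl1 (1.92 ± 0.21) and the procollagen C-proteinase enhancer Pcolce (1.68 ± 0.22) rose, while Lox did not pass (0.25 ± 0.24).

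Proteases and their inhibitors diverged, with 4 of 12 higher and 3 lower (6 higher and 3 lower with the hybridization spike-ins, 3 and 5 with the positive controls). Timp1, an inhibitor induced in injury, was at 10.74, 10.94, 11.33 and 11.26 at 6 h and 13.60, 14.16, 14.98 and 13.17 at 24 h, with a sham mean of 5.02, and rose by 2.91 ± 0.50 (adjusted p = 0.000206). Timp3, bound to the matrix, was at 12.80, 12.94, 12.41 and 12.95 at 6 h and 8.96, 8.69, 9.22 and 8.53 at 24 h, with a sham mean of 10.73, and fell by 3.92 ± 0.17 (adjusted p = 1.1e-11). Timp4, the inhibitor enriched in heart, was at 11.54, 11.92, 11.66 and 12.08 at 6 h and 8.41, 7.47, 7.44 and 8.84 at 24 h and fell by 3.76 ± 0.39 (adjusted p = 8.7e-07). Timp1 thus moved opposite to Timp3 and Timp4 with no overlap in any of them, and Timp2 did not pass (-0.15 ± 0.23). Mmp12 was at 7.11, 6.97, 6.51 and 6.99 at 6 h and 10.50, 11.33, 10.41 and 10.28 at 24 h and rose by 3.74 ± 0.53 (adjusted p = 2.83e-05), and Mmp2 (-0.56 ± 0.32) did not pass.

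Fibroblast genes of the resting heart rose in 4 of 12 and fell in 2 (5 higher and 2 lower with the hybridization spike-ins, 3 and 6 with the positive controls). Dpep1, a membrane dipeptidase, was at 11.02, 10.98, 10.95 and 11.10 at 6 h and 8.85, 8.38, 8.96 and 9.24 at 24 h and fell by 2.15 ± 0.22 (adjusted p = 7.64e-07), and Gsn, gelsolin, differed by -1.12 ± 0.23. Meox1, a factor of fibroblast activation, was at 5.71, 6.69, 5.60 and 6.10 at 6 h and 8.29, 7.85, 7.98 and 8.35 at 24 h and rose by 2.09 ± 0.31 (adjusted p = 4.17e-05), and Lum, lumican, rose by 1.83 ± 0.26. Tcf21 (0.43 ± 0.30) and Dcn (-0.26 ± 0.18), general fibroblast markers, did not pass, and the list mean was 10.28 at 6 h and 10.37 at 24 h (exact permutation p = 0.686). Of 13 contractile genes of smooth muscle and myofibroblasts 2 rose, 4 did without 24 h replicate 17, 9 did with the hybridization spike-ins, and with the positive controls 2 rose and 5 fell. Cnn1, calponin 1, was at 6.02, 5.14, 5.96 and 5.82 at 6 h and 8.62, 10.35, 9.81 and 6.67 at 24 h, lowest in replicate 17, and rose by 3.13 ± 0.53 (adjusted p = 0.000182), and Tpm2 rose by 1.38 ± 0.21, while Acta2 (-0.18 ± 0.24) and Myh11 (-0.28 ± 0.16) did not pass. The 6 h levels of Cnn1 and Meox1 were near background. Of 11 epicardial genes Aldh1a2, the retinoic acid enzyme, rose (1.84 ± 0.21), against 6 higher and 0 lower with the hybridization spike-ins and 1 and 4 with the positive controls, and the defining Wt1 (-0.32 ± 0.20) and Upk3b (-0.52 ± 0.32) did not pass.

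Genes of cell division rose together. Of 23 DNA replication genes 20 were higher and 0 lower, and of 24 mitosis genes 14 and 0. With the hybridization spike-ins 23 and 22 were higher and with the positive controls 16 and 10, and none was lower under either. Mcm5, a subunit of the replicative helicase, was at 4.55, 4.30, 4.59 and 4.25 at 6 h and 7.87, 7.60, 6.55 and 6.54 at 24 h and rose by 2.72 ± 0.35 (adjusted p = 1.04e-05). Prim1, the primase that starts each DNA strand, was at 5.59, 5.63, 5.0 and 5.84 at 6 h and 9.15, 8.84, 8.36 and 8.09 at 24 h and rose by 3.10 ± 0.26 (adjusted p = 9.3e-08). Mcm6, also of the helicase, was at 7.66, 7.91, 7.80 and 8.01 at 6 h and 10.18, 10.29, 10.44 and 9.37 at 24 h and rose by 2.22 ± 0.20 (adjusted p = 2.3e-07). All 24 h hearts exceeded all 6 h hearts for these genes, and the 6 h levels of Mcm5 and Prim1 were near background. Mcm4 (2.41 ± 0.25), Mcm3 (2.32 ± 0.25), Rrm1, of nucleotide supply (1.75 ± 0.27), and Pcna, the polymerase clamp (1.32 ± 0.19), rose. Tk1 (0.23 ± 0.13), Orc1 (0.37 ± 0.19) and Mcm10 (0.54 ± 0.25) did not pass.

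E2F factors drive replication genes, and the letters TTTGGCGC, an E2F motif, were searched on both strands of the same promoter windows. They were found in 5 of 20 replication promoters, or 25%, and in 0.714% of all promoters, and TTTCCCGC, another form, in 15% against 1.54%. Shown are Mcm5 at chr8:75109340-75109387 (plus strand), Mcm6, with the motif at both capitals, at chr1:128359725-128359835 (minus strand), and Pola1, the catalytic subunit that extends primers (1.13 ± 0.23), at chrX:93632266-93632313 (minus strand).
Mcm5: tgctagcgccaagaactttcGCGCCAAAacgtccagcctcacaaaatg
Mcm6: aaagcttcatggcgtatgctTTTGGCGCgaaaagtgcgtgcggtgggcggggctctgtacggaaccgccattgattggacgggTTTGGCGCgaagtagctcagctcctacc
Pola1: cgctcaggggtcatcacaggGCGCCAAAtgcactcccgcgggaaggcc
TTTGGCGG, a further form, was found in none of the 20 and in 109 of 15691 promoters.

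Among mitosis genes Mki67, the proliferation antigen Ki-67, was at 6.84, 7.20, 6.96 and 4.99 at 6 h and 10.32, 9.45, 8.12 and 8.78 at 24 h and rose by 2.67 ± 0.57 (adjusted p = 0.00157). Its 6 h replicate 11 lay far below the other 6 h hearts. Ccna2, cyclin A2, was at 4.63, 4.91, 4.81 and 4.50 at 6 h and 7.36, 6.52, 5.35 and 6.23 at 24 h and rose by 1.65 ± 0.33 (adjusted p = 0.000796). Top2a, a topoisomerase of condensing chromosomes, was at 4.73, 4.87, 5.51 and 5.11 at 6 h and 7.24, 6.84, 5.90 and 6.55 at 24 h and rose by 1.58 ± 0.27 (adjusted p = 0.000212). Cdk1, the kinase that starts mitosis, was at 3.05, 3.40, 2.89 and 2.74 at 6 h and 5.02, 4.70, 3.89 and 3.48 at 24 h, near background throughout, and its difference was 1.25 ± 0.30. The 24 h values were highest in replicate 14 and the groups did not overlap. The 6 h levels of Ccna2 and Top2a were near background as well. Cdc20 (0.06 ± 0.20), Cenpf (0.10 ± 0.26) and Birc5 (0.38 ± 0.22), of late mitosis, did not pass. Only 1 mitosis gene passed when genes had to average 6.76 or more over the arrays, and 10 replication genes did, since few others were tested then.

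Mitotic genes carry the cell cycle homology region TTTGAA and the CCAAT box as known promoter elements. TTTGAA was found in 16 of 20 mitosis promoters, or 80%, against 15.8% of all promoters, and CCAAT in 75% against 38.8%. The TTTGAA matches, on either strand, are in capitals for Mki67 at chr7:135716452-135716515 (minus strand), Top2a at chr11:99024190-99024388 (minus strand) and Cdk1 at chr10:69352913-69353003 (minus strand).
Mki67: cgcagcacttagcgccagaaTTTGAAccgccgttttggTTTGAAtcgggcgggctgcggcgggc
Top2a: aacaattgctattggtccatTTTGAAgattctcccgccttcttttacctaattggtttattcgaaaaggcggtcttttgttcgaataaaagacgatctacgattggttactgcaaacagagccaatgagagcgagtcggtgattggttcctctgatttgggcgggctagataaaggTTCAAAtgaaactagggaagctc
Cdk1: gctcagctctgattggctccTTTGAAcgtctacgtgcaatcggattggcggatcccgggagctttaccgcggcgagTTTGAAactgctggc

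Cell cycle inhibitors and p53 targets fell in 8 of 16 and rose in 1, Cdkn2d (0.71 ± 0.17). Cdkn1a, the inhibitor p21, was at 16.08, 16.15, 16.16 and 15.70 at 6 h and 12.76, 13.78, 13.74 and 12.28 at 24 h, with a sham mean of 11.03, and fell by 2.88 ± 0.44 (adjusted p = 6.2e-05). Sesn1, a stress sensor of growth signalling, was at 13.84, 14.26, 13.74 and 14.41 at 6 h and 11.79, 11.17, 11.26 and 11.87 at 24 h and fell by 2.54 ± 0.20 (adjusted p = 4.13e-08), below its sham mean of 13.31 in every 24 h heart. Gadd45a (-2.44 ± 0.34), Gadd45g (-2.24 ± 0.52) and Btg2 (-1.98 ± 0.42), which restrain proliferation, fell. With the hybridization spike-ins 7 of the list rose and 6 fell, and with the positive controls 0 and 10. Mdm2, a p53 target, differed by -0.43 ± 0.16, and Ccng1 (-0.25 ± 0.15) and Phlda3 (0.52 ± 0.21) did not pass.

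Chaperones of the endoplasmic reticulum, where secreted proteins fold, rose in 14 of 17 and fell in 0, and in 17, 16 and 10 with the hybridization, poly-A and positive controls. Creld2, a secreted stress protein, was at 7.47, 7.43, 7.56 and 6.80 at 6 h and 9.81, 10.48, 11.64 and 9.53 at 24 h and rose by 3.05 ± 0.33 (adjusted p = 1.75e-06). Hyou1, a large chaperone of the compartment, was at 9.77, 10.49, 10.50 and 10.50 at 6 h and 12.47, 13.29, 13.60 and 12.26 at 24 h and rose by 2.59 ± 0.27 (adjusted p = 9.88e-07). Pdia6, which forms disulfide bonds, was at 12.49, 12.79, 12.11 and 12.53 at 6 h and 14.42, 14.95, 15.02 and 13.83 at 24 h and rose by 2.07 ± 0.24 (adjusted p = 2.76e-06). Sdf2l1 rose by 2.28 ± 0.29, and the main chaperone Hspa5, also called BiP, by 0.97 ± 0.17. All these 24 h hearts exceeded the 6 h hearts, with replicate 16 highest for Creld2, Hyou1 and Pdia6. Herpud1 (0.01 ± 0.21), Canx (0.34 ± 0.13) and Dnajc3 (0.35 ± 0.20) did not pass.

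The endoplasmic reticulum stress element, CCAAT, any 9 bases and CCACG, is bound by ATF6 and NF-Y, and both strands were searched. It was found in 7 of 16 promoters of the list, or 43.8%, against 0.172% of all promoters, the 7 being Hspa5, Hsp90b1, Calr, Canx, Pdia6, Dnajc3 and Creld2, of which 5 rose. The element is in capitals for Creld2 at chr15:88819500-88819558 (plus strand), Pdia6 at chr12:17266471-17266529 (plus strand) and Calr, the lectin chaperone calreticulin (1.34 ± 0.15), at chr8:84847055-84847113 (minus strand).
Creld2: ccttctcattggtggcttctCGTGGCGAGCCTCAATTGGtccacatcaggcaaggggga
Pdia6: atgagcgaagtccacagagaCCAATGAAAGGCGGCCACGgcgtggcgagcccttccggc
Calr: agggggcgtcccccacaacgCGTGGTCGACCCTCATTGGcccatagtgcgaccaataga
Creld2 and Calr hold it on the opposite strand, where it reads as its reverse complement.

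Counts in other arms of protein homeostasis moved with the scaling. Constitutive proteasome subunits rose in 14 of 29, led by Psma5 (0.95 ± 0.16) and Psmd14 (0.88 ± 0.17), but 29 rose with the hybridization spike-ins, 2 with the positive controls, where 2 fell, and 8 without replicates 16 and 17. Of 17 ATF4 amino acid stress genes 4 rose and 4 fell (9 higher and 1 lower with the hybridization spike-ins, 3 and 8 with the positive controls). The serine and folate enzymes Psat1 (1.86 ± 0.36) and Mthfd2 (1.5 ± 0.28) rose, while Atf4 itself (-0.99 ± 0.28) and Ddit4, an inhibitor of growth signalling (-1.37 ± 0.34), fell and Trib3 (0.20 ± 0.19) did not pass. Heat shock genes fell in 4 of 12 and rose in 2 (6 higher and 2 lower with the hybridization spike-ins, 0 and 5 with the positive controls). Hspa1a was at 8.58, 13.59, 11.82 and 8.75 at 6 h and 5.78, 5.91, 6.55 and 6.05 at 24 h, and its near-identical copy Hspa1b differed by -3.69 ± 0.67, so the probes may not separate them. The Hspa1a 6 h hearts differed widely, with replicates 8 and 10 above replicates 7 and 11, and the Dnajb1 difference of -1.34 ± 0.48 was lost without 6 h replicate 8 (-0.70, adjusted p = 0.152), without 6 h replicate 10 and without any 1 of the 24 h hearts. Hspb1 (-0.17 ± 0.39) and Hsp90aa1 (0.08 ± 0.24) did not pass. Ribosome biogenesis genes rose in 5 of 18, with Npm1, nucleophosmin (0.88 ± 0.16), and Nop16 (0.87 ± 0.23) first, and 12 rose with the hybridization spike-ins against 1 with the positive controls, where 7 fell. Leaving out 1 heart gave from 3 (6 h replicate 7 or 10, 24 h replicate 15 or 16) to 8 (24 h replicate 17) higher.

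Antioxidant, heme and metal genes were mixed, with 7 of 17 lower and 3 higher, and 3 lower and 8 higher with the hybridization spike-ins, against 10 and 2 with the positive controls. Mt2, a metal-binding metallothionein, was at 19.30, 19.24, 19.33 and 19.11 at 6 h and 17.34, 17.63, 17.27 and 17.51 at 24 h and fell by 1.80 ± 0.43 (adjusted p = 0.00327), and Mt1 differed by -1.22 ± 0.22. Hmox1, heme oxygenase 1, was at 14.61, 13.92, 14.14 and 12.79 at 6 h and 11.87, 12.92, 13.01 and 11.13 at 24 h, with a sham mean of 7.66. Its difference of -1.63 ± 0.63 did not pass (adjusted p = 0.0601), and it passed without 6 h replicate 11 (-1.99, adjusted p = 0.0326) or without 24 h replicate 16 (-1.89, adjusted p = 0.0486). Ftl1, ferritin light chain, was at 12.77, 12.79, 12.98 and 12.56 at 6 h and 14.49, 14.97, 15.24 and 13.82 at 24 h and rose by 1.85 ± 0.26 (adjusted p = 2.83e-05), and Blvrb, which reduces biliverdin, rose by 1.18 ± 0.19. Nqo1 (-0.49 ± 0.17) and Gclc (-0.69 ± 0.17), classic NRF2 targets, fell, and Fth1, ferritin heavy chain (-0.07 ± 0.12), did not pass. Cholesterol synthesis genes rose in 9 of 14 and fell in 0. Dhcr7, the last enzyme of the pathway, was at 6.63, 6.61, 6.65 and 6.53 at 6 h and 8.48, 8.09, 8.05 and 8.27 at 24 h, with a sham mean of 7.98, and rose by 1.62 ± 0.18 (adjusted p = 2.11e-06). Nsdhl (1.18 ± 0.19), Sc5d (1.06 ± 0.17) and Cyp51 (1.03 ± 0.22) rose with it, and Insig1 (0.05 ± 0.19) did not pass. With the positive controls 4 rose and 2 fell, and with the hybridization spike-ins 12 and 0.

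Clock genes encode a daily feedback loop in which CLOCK and ARNTL activate the period and cryptochrome repressors. Of 14 core genes 10 were lower and 2 higher at 24 h (3 higher and 6 lower with the hybridization spike-ins, 0 and 11 with the positive controls). Per1 was at 9.05, 9.11, 9.25 and 9.34 at 6 h and 6.14, 6.37, 6.01 and 5.96 at 24 h and fell by 3.07 ± 0.16 (adjusted p = 2.29e-10). Per2 was at 7.43, 7.42, 7.32 and 7.84 at 6 h and 5.19, 5.57, 4.93 and 5.10 at 24 h, with a sham mean of 6.88, and fell by 2.31 ± 0.20 (adjusted p = 1.11e-07). Nr1d1, the repressor REV-ERB alpha, was at 12.88, 12.68, 12.82 and 12.61 at 6 h and 11.34, 10.92, 11.06 and 11.23 at 24 h and fell by 1.61 ± 0.16 (adjusted p = 6.38e-07). For these 3 genes the spread within a group was small beside the difference, and the groups did not overlap. The 24 h hearts were near background for Per1 and Per2, so the folds of both are uncertain. Ciart was at 9.10, 9.69, 9.16 and 10.16 at 6 h and 5.45, 4.36, 5.24 and 5.67 at 24 h, with a sham mean of 9.79, and Cry2 (-1.56 ± 0.16) and Cry1 (-1.06 ± 0.21) fell as well. Per3 moved against Per1 and Per2, at 8.0, 7.97, 7.62 and 8.85 at 6 h and 9.25, 8.27, 8.83 and 9.35 at 24 h, a rise of 0.81 ± 0.27, while its sham mean was 11.36. Clock rose by 0.70 ± 0.17, and Arntl, its partner, did not pass (0.19 ± 0.28). Among 4 output factors (1 higher and 0 lower with the hybridization spike-ins, 0 and 2 with the positive controls), Nfil3 was lower (-0.74 ± 0.24), a call lost without 6 h replicate 8 or 10 or 24 h replicate 14 (adjusted p = 0.0857 to 0.111), and Dbp, at 14.37, 14.23, 13.92 and 15.52 at 6 h and 15.48, 14.32, 15.01 and 15.27 at 24 h, did not pass (0.51 ± 0.28) unless 6 h replicate 11 was left out (0.84, adjusted p = 0.00867). The labels do not give the time of day of surgery or collection, so time of day and time of reperfusion cannot be told apart.

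CLOCK and ARNTL bind the E-box CACGTG, which reads the same on both strands. It was found in 4 of 12 core clock promoters, or 33.3%, against 8.18% of all promoters. The share was similar in the ribosome biogenesis list, at 4 of 13 promoters, or 30.8%, and 1 of 4 output factors held it. The E-boxes are in capitals for Ciart at chr3:95882247-95882364 (minus strand), Per1 at chr11:69098763-69098808 (plus strand) and Cry1 at chr10:85185089-85185134 (minus strand).
Ciart: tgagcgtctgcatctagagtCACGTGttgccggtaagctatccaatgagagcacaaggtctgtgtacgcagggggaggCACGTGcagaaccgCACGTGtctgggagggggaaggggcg
Per1: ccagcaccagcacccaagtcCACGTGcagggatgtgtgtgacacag
Cry1: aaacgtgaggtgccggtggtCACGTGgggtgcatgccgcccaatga
Ciart holds 3 of them, and the promoters of Per1 and Cry1 hold 1 each in these windows.

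**Figure D4:**
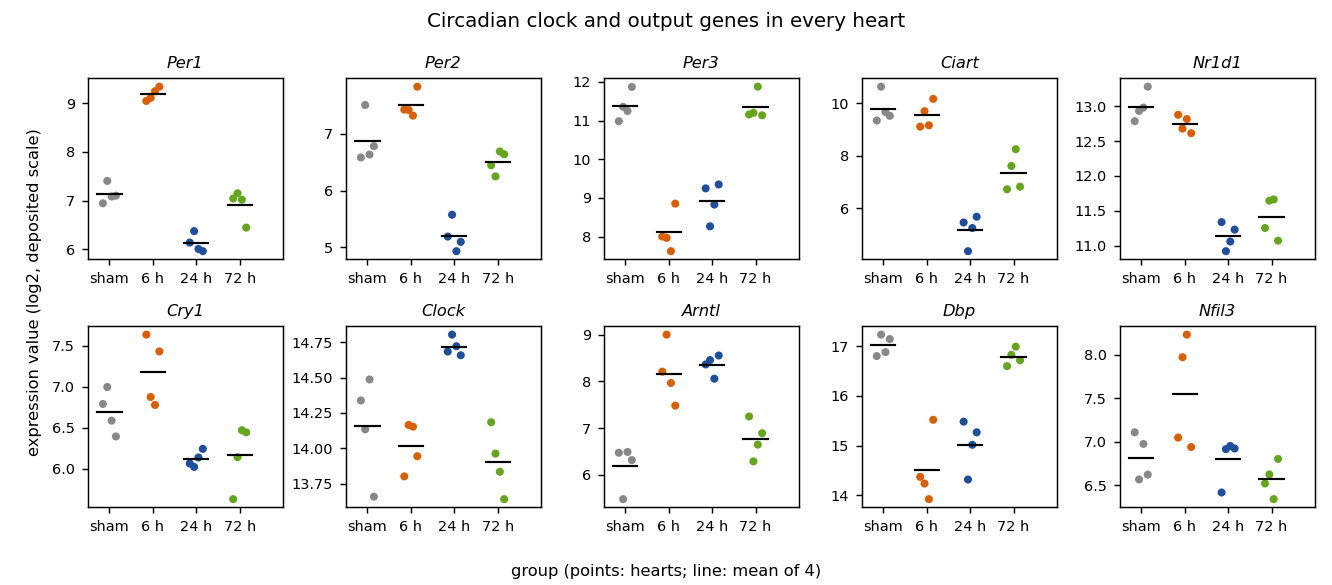
Log2 values (y axes, which differ between panels) of 10 clock and output genes in every heart of the 4 groups (x axis), with a line at the mean of 4. Per1, Per2, Ciart, Nr1d1, Cry1 and Nfil3 are lower at 24 h than at 6 h, Clock and Per3 are higher, and Arntl and Dbp did not pass. Dbp has a sham mean of 17.01 and lies between 13.92 and 15.52 on the 8 arrays compared.

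Fuel genes of the mitochondrion were lower at 24 h on the deposited scale. Of 23 fatty acid oxidation genes 20 fell, of 18 TCA cycle genes 14, of 36 oxidative phosphorylation subunits 22 and of 17 branched chain amino acid genes 12, and none rose (0 in each list at an unadjusted p under 0.05 as well). With the hybridization spike-ins 1, 0, 0 and 6 fell and 2 oxidative phosphorylation subunits rose, and with the poly-A spike-ins 6, 2, 2 and 9 fell. With the positive controls 21, 18, 36 and 17 fell. Most calls of the first 3 lists thus rested on the scale, while of the 4 medians only that of oxidative phosphorylation turned under any of the 5 scalings, from -0.49 to 0.04 with the hybridization spike-ins. Acot2, a mitochondrial thioesterase, was at 15.52, 15.48, 15.32 and 15.90 at 6 h and 14.11, 13.95, 13.91 and 14.29 at 24 h and fell by 1.49 ± 0.15 (adjusted p = 9.6e-07), which held under each scaling. Etfdh, which passes electrons from fat oxidation to the respiratory chain, was at 16.88, 16.88, 16.66 and 16.86 at 6 h and 16.08, 15.42, 15.83 and 16.33 at 24 h and fell by 0.90 ± 0.16 (adjusted p = 0.000324). Bckdhb, a subunit of the branched chain keto acid dehydrogenase, was at 11.81, 11.75, 11.20 and 11.86 at 6 h and 10.49, 9.94, 10.22 and 10.72 at 24 h and fell by 1.31 ± 0.22 (adjusted p = 0.000134). Ogdh (-0.83 ± 0.14) of the TCA cycle and Ndufs4 (-0.84 ± 0.17) of complex I were at the front of their lists, and Atp5b (-0.15 ± 0.11) and Cpt1a (-0.05 ± 0.25) did not pass. The Etfdh, Ogdh and Ndufs4 calls were lost with the hybridization spike-ins (adjusted p = 0.0765, 0.175 and 0.142). Counts also changed when single hearts were left out. Without 24 h replicate 15, 12 fatty acid oxidation genes fell, and without replicate 16, 9 TCA cycle genes. Over all genes 1668 were lower without replicate 15 and 1891 without replicate 16, against 2135 with all arrays.

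Nuclear receptors and coactivators that set these pathways fell in 6 of 9 and rose in 1 (2 higher and 4 lower with the hybridization spike-ins, 1 and 7 with the positive controls). Ppara, the receptor for fatty acids that induces their oxidation, was at 9.99, 10.04, 10.30 and 10.97 at 6 h and 8.59, 8.05, 7.53 and 8.87 at 24 h and fell by 2.07 ± 0.27 (adjusted p = 1.36e-05). Pparg was at 10.91, 10.45, 10.46 and 10.22 at 6 h and 8.85, 9.0, 8.76 and 8.67 at 24 h, with a sham mean of 8.67, and fell by 1.69 ± 0.15 (adjusted p = 1.6e-07). Ppargc1a, the coactivator PGC-1 alpha, differed by -0.79 ± 0.21, whereas its relative Ppargc1b was at 7.24, 7.29, 7.17 and 7.71 at 6 h and 8.65, 8.76, 8.18 and 9.32 at 24 h and rose by 1.37 ± 0.19 (adjusted p = 2.47e-05). Of 22 hypoxia and glycolysis genes 4 rose and 7 fell. Pfkfb3, which activates glycolysis, was at 10.18, 10.36, 10.78 and 8.45 at 6 h and 7.79, 7.85, 8.32 and 7.18 at 24 h and fell by 2.16 ± 0.37 (adjusted p = 0.000211). Slc2a4, the insulin-responsive glucose transporter, fell by 1.33 ± 0.18 (adjusted p = 2.17e-05), and Pfkm, muscle phosphofructokinase, differed by -1.18 ± 0.21. Pgam1, a glycolytic mutase, was at 8.0, 8.65, 8.02 and 8.44 at 6 h and 10.11, 10.74, 10.11 and 9.87 at 24 h and rose by 1.93 ± 0.22 (adjusted p = 3.05e-06). Gapdh (0.00 ± 0.11) and Ldha (0.08 ± 0.12) did not pass. With the positive controls 1 of these genes rose and 13 fell, and with the hybridization spike-ins 12 and 6.

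Stress and fetal genes of muscle cells rose in 8 of 20 and fell in 4, against 11 higher and 3 lower with the hybridization spike-ins and 6 and 7 with the positive controls. Nppa, atrial natriuretic peptide, was at 16.82, 16.68, 17.42 and 16.95 at 6 h and 19.33, 19.27, 19.45 and 18.84 at 24 h, with a sham mean of 16.96, and rose by 2.25 ± 0.28 (adjusted p = 7.56e-06). Nppb, the B-type peptide, was at 15.86, 15.86, 15.98 and 15.51 at 6 h and 15.32, 16.08, 16.54 and 15.33 at 24 h, and its difference of 0.02 ± 0.37 did not pass (adjusted p = 0.981). Ankrd2 was at 6.69, 10.28, 8.94 and 7.35 at 6 h and 11.49, 12.87, 12.90 and 11.47 at 24 h and rose by 3.87 ± 0.55 (adjusted p = 3.13e-05), with the 6 h hearts spread from 6.69 to 10.28. Nmrk2, a kinase of NAD synthesis, was at 8.31, 9.19, 9.53 and 11.73 at 6 h and 13.06, 12.83, 13.09 and 11.82 at 24 h and rose by 3.01 ± 0.48 (adjusted p = 9.8e-05). Acta1, skeletal actin of the fetal heart, rose by 1.79 ± 0.32 and Myh7, the slow myosin of the fetal heart, by 1.08 ± 0.24. Ccn1, a matricellular target of mechanical signalling, was at 17.87, 17.74, 17.72 and 16.91 at 6 h and 13.64, 14.34, 15.13 and 13.04 at 24 h and fell by 3.52 ± 0.40 (adjusted p = 2.95e-06), and Xirp1, an actin-binding repair protein, was at 14.75, 15.31, 15.23 and 15.04 at 6 h and 11.59, 12.01, 12.13 and 11.64 at 24 h and fell by 3.24 ± 0.16 (adjusted p = 1.17e-10). Ankrd1 (0.28 ± 0.26) and Xirp2 (0.99 ± 0.38) did not pass. Of 10 atrial markers 3, Dkk3, Clu and Nppa, rose and 2 fell (6 higher and 1 lower with the hybridization spike-ins, 2 and 2 with the positive controls). Nppa was at 19.45 in replicate 16 and at 18.84 to 19.33 in the other 24 h hearts. In replicate 16 Myl7 was at 11.54 against 3.84 to 4.15 and Sln at 9.85 against 5.13 to 5.40. Myl4, Myl7 and Sln did not pass, and whether atrial tissue had a part in other values of that heart was not tested.

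Contractile and calcium genes of ventricular muscle fell more often than they rose on the deposited scale, and the balance turned with the hybridization spike-ins. Of 19 sarcomere genes 6 fell and 0 rose, with 1 and 5 under the hybridization spike-ins and 18 and 0 under the positive controls. Without 24 h replicate 15 or 16, 2 and 3 fell. Tcap, which caps titin, was at 13.68, 14.42, 13.55 and 14.61 at 6 h and 12.76, 12.14, 12.76 and 12.0 at 24 h and fell by 1.65 ± 0.24 (adjusted p = 4.71e-05). Myh6, the adult myosin heavy chain, differed by -0.58 ± 0.13, a call lost with the hybridization and poly-A spike-ins (adjusted p = 0.809 and 0.205), and Ttn (-0.22 ± 0.14) and Tnni3 (-0.30 ± 0.14) did not pass. Calcium handling genes fell in 8 of 17 and rose in 2, against 1 and 6 with the hybridization spike-ins and 12 and 1 with the positive controls. Hrc, a calcium buffer of the sarcoplasmic reticulum, was at 15.47, 15.24, 15.18 and 15.29 at 6 h and 13.81, 13.60, 13.96 and 14.32 at 24 h and fell by 1.37 ± 0.17 (adjusted p = 7.77e-06), and Ryr2, the release channel, differed by -0.84 ± 0.15. Cacnb2, a subunit of the L-type channel, rose by 1.14 ± 0.17. Atp2a2, the calcium pump (-0.30 ± 0.11), and its inhibitor Pln (-0.25 ± 0.13) did not pass.

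Ion channels fell in 8 of 19 and rose in 5 (6 higher and 5 lower with the hybridization spike-ins, 3 and 11 with the positive controls). Kcnip2, the auxiliary subunit of the transient outward potassium current, was at 13.30, 12.88, 13.10 and 12.97 at 6 h and 10.53, 9.64, 10.04 and 11.28 at 24 h, with a sham mean of 13.64, and fell by 2.69 ± 0.27 (adjusted p = 7.58e-07). Its pore partner Kcnd2 was at 9.66, 9.41, 9.11 and 9.06 at 6 h and 7.73, 6.90, 6.79 and 7.86 at 24 h and fell by 1.99 ± 0.21 (adjusted p = 1.3e-06), while Kcnd3 did not pass (-0.30 ± 0.19). Kcna5, of the ultrarapid current, was at 9.69, 9.74, 9.45 and 9.15 at 6 h and 7.48, 7.42, 7.21 and 7.76 at 24 h and fell by 2.04 ± 0.16 (adjusted p = 4.13e-08). Kcnq1, the pore of the slow delayed current, was at 7.27, 7.52, 7.03 and 7.05 at 6 h and 8.89, 8.90, 8.05 and 8.93 at 24 h and rose by 1.48 ± 0.21 (adjusted p = 2.66e-05), and its partner Kcne1 fell by 1.25 ± 0.25. Kcnj5, of the acetylcholine-gated channel, rose by 1.47 ± 0.16, and Gja1, the main connexin of ventricular muscle, rose by 0.68 ± 0.15. Of the 3 adrenergic and muscarinic genes measured, Chrm2 (0.82 ± 0.20) and Grk5, a receptor kinase (0.83 ± 0.24), rose and Adra1b (-0.09 ± 0.16) did not pass (2 higher and 0 lower with the hybridization spike-ins, 0 and 1 with the positive controls), and the Grk5 call was lost without 24 h replicate 15 (adjusted p = 0.0524). Of 7 adipocyte markers none passed in the limma fit (0 higher and 1 lower at an unadjusted p under 0.05), against 3 higher and 0 lower with the hybridization spike-ins and 0 and 5 with the positive controls. Of 10 skeletal muscle markers 2 passed, Acta1 and Tnnt3 (0.92 ± 0.17), against 3 higher and 0 lower with the hybridization spike-ins and 2 and 6 with the positive controls.

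**Figure D5:**
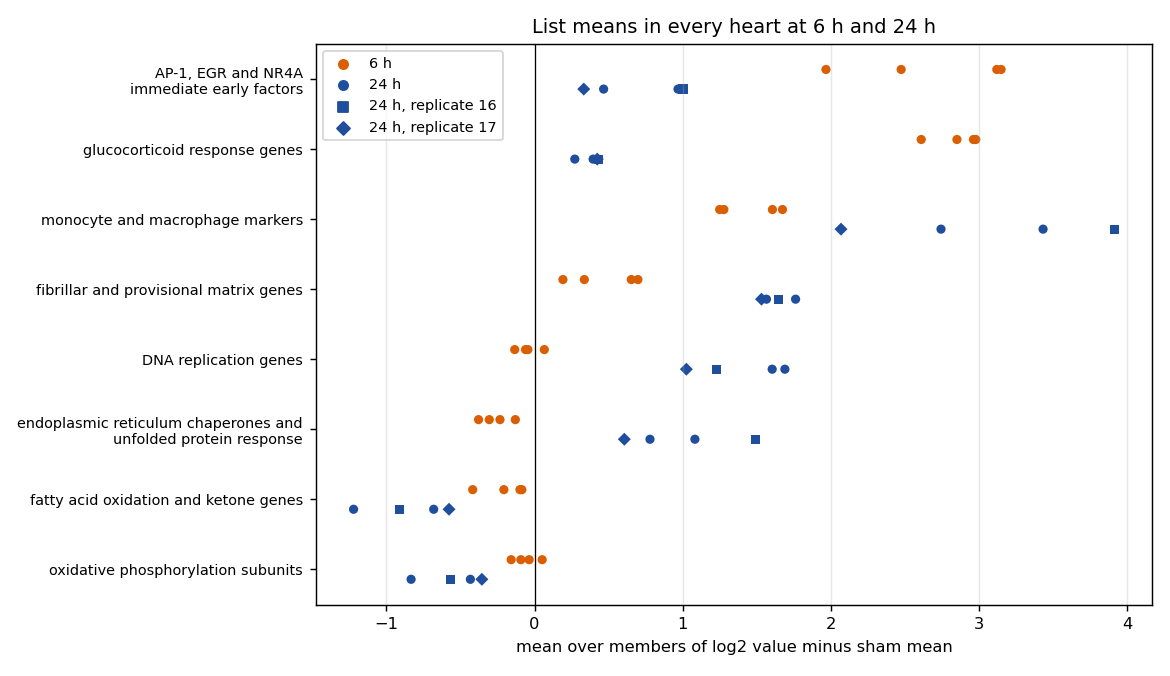
Mean over a list's members of log2 value minus sham mean (x axis) for 8 lists (y axis) in each heart at 6 h and 24 h. Each point is 1 heart, with replicate 16 as squares and replicate 17 as diamonds. Immediate early genes lie between 1.97 and 3.15 at 6 h and between 0.33 and 1.0 at 24 h, and macrophage markers between 1.25 and 1.67 and between 2.07 and 3.91, lowest in replicate 17 and highest in replicate 16.

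Over all 16 arrays the genes whose pattern was most like that of Arg1, by Pearson correlation, were Pilra, an inhibitory myeloid receptor (0.977), Mcm6 (0.963) and Rpl36a (0.956). Pilra differed by 3.10 ± 0.38 between 24 h and 6 h and Rpl36a, a ribosomal protein with near-identical copies, by 1.02 ± 0.19. Those most like Fam107a were Sphk1, which makes sphingosine 1-phosphate (0.983), Slc10a6, a steroid sulfate transporter (0.981), and Dnajb4, a co-chaperone (0.980). Sphk1 differed by -3.72 ± 0.18, Slc10a6 by -4.33 ± 0.18 and Dnajb4 by -1.88 ± 0.15. Genes were chosen among those past the same thresholds, and the 16 points share their group means, so these values describe and are not tested.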

How the data were processed

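Gene expression was measured in 16 mouse hearts, 4 per group, on Affymetrix arrays. The authors' deposited table holds log2 values per probe set, made with Affymetrix Expression Console per the submitters' processing notes. Neither the summarization method nor the log base is given in the sources used here. Base 2 was taken from the range of the values, 1.83 to 19.82. The design text names another array than the one whose identifiers the table holds, and the series title gives other hours than the sample labels, which were followed.

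Of 28846 probe sets 19572 carried 1 gene symbol in the platform annotation, 0 several and 9274 none. Per gene the probe set with the highest mean was kept, leaving 19505 genes. Array medians lay between 5.84 and 5.95, and no 2 arrays were identical. Precision is limited by the number of arrays. The deposited values were fitted without further normalization in limma 3.58.1 (R 4.3.3) over all 16 arrays, with 12 residual degrees of freedom, and 24 h was contrasted with 6 h. Array measures were compared by exact two-sided permutation tests. Alternatives changed the array scaling, filters, probe set rule, variance model, minimum fold and arrays included. In simulated data with 200 changed genes among 19505 the fit recovered 12%, 90%, 100% and 100% of genes changed by 0.5, 1, 2 and 3 log2 units, with 6 false among 157 calls. The real comparison gave 5507 calls, and the adjusted threshold depends on the share of genes that differ. The recovered percentages therefore do not carry over to it.

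The comparison, its members and the gene lists were chosen with earlier results of these data known. Genes named are the 12 largest rises and falls that passed, did not overlap and reached the median level, passing over predicted genes and olfactory and vomeronasal receptors, up to 4 largest passing members of each list with main members that did not pass, 15 genes always named, and the 3 genes most like the top rise and fall. Some other list members were named after their values were seen. Promoter windows were taken from RefSeq (GRCm38.p6).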

Additional observations from a re-analysis of the deposited data

Results flagged for a closer look

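In groups of 4 hearts, 25 of 444 tested groups (222 genes and array measures at 6 h and 24 h) had a highest or lowest heart whose distance to the nearest other heart was too large a share of the group's range by Dixon's 95% critical value. Chance alone marks about 5% of groups, so the number as a whole is near what chance gives. No cause was tested for any of them.

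In 6 h replicate 7, Ccl2 was at 12.09 (others 11.36 to 11.47), Osmr at 13.32 (13.04 to 13.08), Ccl9 at 13.77 (13.23 to 13.29), and the interferon-stimulated genes Ifit1 at 8.80 (6.86 to 7.02) and Ifit3 at 12.35 (10.41 to 10.66), all above the other 6 h hearts, while Hyou1 was below them at 9.77 (10.49 to 10.50). In 6 h replicate 11, Il1rn was low at 7.15 (7.5 to 7.55), Mki67 at 4.99 (6.84 to 7.20), Cdkn1a at 15.70 (16.08 to 16.16) and Ccn1 at 16.91 (17.72 to 17.87). In 6 h replicate 8, Aldh1a2 was high at 8.69 (8.11 to 8.15), and Myom2 was low at 14.79 (15.19 to 15.25), as were the negative control median at 5.39 (5.50 to 5.52) and the atrial marker mean at 9.22 (9.52 to 9.57). In 6 h replicate 10, Psma5 was low at 10.01 (10.49 in the others), Etfdh at 16.66 (16.86 to 16.88), Sdha, a subunit of succinate dehydrogenase, at 12.02 (12.40 to 12.44) and Bckdhb at 11.20 (11.75 to 11.86).

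In 24 h replicate 16 the atrial marker mean was 11.76 (9.54 to 9.63) and Btc 6.43 (6.09 to 6.10), both high, and Loxl1 at 9.93 (10.39 to 10.45), Cacnb2 at 14.78 (15.32 to 15.37) and Kcnq1 at 8.05 (8.89 to 8.93) were low. In 24 h replicate 17 Bag3, a co-chaperone of muscle, was high at 11.44 (10.91 to 10.93). In 24 h replicate 14 Nfil3 was low at 6.42 (6.92 to 6.95).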

How the results depend on the processing

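Of 203 named genes 198 passed, and filters on low levels left 160 of these tested under all 22 alternatives. Of the 160, 104 were past the threshold in the same direction in each, and of the others 22 were so wherever they were tested. Of the 198, 42 lost their call under at least 1 alternative other than the minimum fold, and 0 changed direction past the threshold. Array scaling moved the counts in opposite directions: 3290 genes were lower with median centring, 9811 higher and 539 lower with the hybridization spike-ins, 831 lower with the poly-A spike-ins, and 1492 higher and 10310 lower with the positive controls, each by construction a shift of all differences alike. Testing against a minimum of 1.5-fold left 717 higher and 379 lower. Leaving out 1 heart at a time gave 2855 to 3537 higher and 1668 to 2343 lower genes. Among the 203 genes the hybridization spike-ins ended 30 calls and added 3, the poly-A spike-ins 15 and 1, and the positive controls 10 and 1. Which scale is right was not tested. No paired analysis was possible because the groups share no replicate numbers. Values near the negative controls limit folds of dim genes. In simulated data 12% of differences of 0.5 were recovered, but with only 200 changed genes, so that share does not carry over to these data.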

Other observations

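Gene families were also taken by symbol after the data were seen, and no list above was made for them. Their counts are to be read against 17.3% higher and 10.9% lower of all genes, and their medians against -0.04. Counts under a centring are to be read against those of all genes under it, given above. Of 53 replication-dependent histone genes 45 were higher and 0 lower in limma, with a median difference of 1.25, and 33 were higher and 3 lower with the positive controls. Their copies are near-identical, so the probes may not tell single members apart. Of 63 cytosolic ribosomal protein genes 54 were higher and 1 lower (median 0.66), which came to 15 and 4 with the positive controls. Of 76 mitochondrial ribosomal protein genes 8 were higher and 10 lower (median -0.08), against 41 and 0 with the hybridization spike-ins and 1 and 46 with the positive controls. Their median on the deposited scale was close to that of all genes. Of 31 genes with the symbols Arpc, Actr, Capg, Capz, Cfl, Pfn, Tmsb or Coro, 20 were higher and 1 lower (median 0.70), and 11 and 7 with the positive controls. Of 15 tubulin genes 6 were higher and 0 lower (median 0.43), with 5 and 3 under the positive controls. Zinc finger genes turned with the scaling: of 330 named Zfp, 87 were higher and 19 lower (median 0.17), and 37 and 104 with the positive controls.

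As a median over all genes, the spread between hearts was of like size at both times. The median standard deviation over all genes was 0.251 at 6 h and 0.251 at 24 h, against 0.222 in sham and 0.207 at 72 h. Single genes and measures differed from it in both directions. The standard deviation was 0.52 at 6 h and 1.43 at 24 h for Ccr2, and 2.45 and 0.34 for Hspa1a. For the mean of monocyte and macrophage markers it was 0.22 and 0.81, and for that of endothelial identity genes 0.21 and 0.15.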
